A study of Mus musculus with 12 samples.

Results

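The genes described here are 10 members of the Wnt signalling pathway: the Frizzled receptors Fzd1, Fzd6 and Fzd7, the co-receptors Lrp5 and Lrp6, the signal carrier Ctnnb1 (beta-catenin), the DNA-binding factors Lef1, Tcf7 and Tcf7l2, and the target gene Axin2. They were picked as one small family because Fzd6 was higher and Lef1 lower in age-associated B cells, so the values of these cells against the other old groups chose the members and are given below as a description without a test. The arrays measured 9 of the 10 through 21 of 45037 probe sets, and the fit held 9 of 18193 genes. No probe set carried Tcf7 as its single symbol, and Tcf7 is not analysed here.

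In canonical Wnt signalling a Wnt protein binds a Frizzled receptor together with Lrp5 or Lrp6, which stops the destruction complex from degrading beta-catenin. Beta-catenin then enters the nucleus and binds TCF/LEF factors, which repress their targets with Groucho (Tle) partners when beta-catenin is missing. Lef1 is known in mice for its role in the growth of B cell precursors, and beta-catenin is controlled largely as a protein, which RNA arrays do not measure.

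RNA of sorted B cells from female C57BL/6 mice was hybridised to 12 Affymetrix arrays, 3 in each of 4 groups, and no cell was cultured. The groups were age-associated B cells (ABC) from the spleen of old mice, B1 cells from the peritoneal cavity of old mice, follicular (FO) B cells from the spleen of old mice, and B1 cells from the peritoneal cavity of young mice. Old mice were more than 15 months of age and young mice 8 weeks. The sample titles call the B1 cells B1a, and the surface markers of the sort are not named. There is no young ABC or FO group, so age is compared in B1 cells alone, and every comparison of B1 with a splenic group differs in organ as well as in cell type, which cannot be told apart. Nothing in the labels says whether the 3 replicates of a group came from different mice, from pools or from repeated sorting, and the p-values reflect no more than the spread among these arrays.

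Array medians lay between 44.0 and 49.2 intensity units, and no array gives a depth in counts, so the number of arrays limits the precision. The pan-B-cell gene Cd79a had log2 intensities of 13.27 in ABC, 13.23 in old B1, 13.35 in old FO and 13.15 in young B1 cells. Tbx21, which encodes T-bet, was at 11.67 in ABC, 6.23 in old B1, 8.50 in old FO and 5.07 in young B1 cells. Itgax, which encodes CD11c, was at 11.76 in ABC, 5.85 in old B1 (6.46 without replicate 3), 5.85 in old FO and 5.95 in young B1 cells. Fcer2a, the follicular marker CD23, was at 8.97 in ABC, 7.09 in old B1 (8.26 without replicate 3), 12.20 in old FO and 8.43 in young B1 cells. Old B1 replicate 3 and old FO replicate 2 stood apart, with array weights of 0.102 and 0.349, while the other 10 arrays had weights from 0.705 to 2.81.

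The promoters of the 2 DNA-binding factors that differed between groups and of the receptor Fzd7 are shown because TCF/LEF proteins bind DNA at a short core. Each window runs from 250 bases before to 50 bases after a RefSeq start on GRCm38.p6, plus strand, and capitals mark the 5-letter core CTTTG or its reverse complement CAAAG. The windows are the first listed of 4 for Lef1 (chr3:131110047-131110346), the first of 2 for Tcf7l2 (chr19:55741560-55741859), and that of Fzd7 (chr1:59481897-59482196).
Lef1: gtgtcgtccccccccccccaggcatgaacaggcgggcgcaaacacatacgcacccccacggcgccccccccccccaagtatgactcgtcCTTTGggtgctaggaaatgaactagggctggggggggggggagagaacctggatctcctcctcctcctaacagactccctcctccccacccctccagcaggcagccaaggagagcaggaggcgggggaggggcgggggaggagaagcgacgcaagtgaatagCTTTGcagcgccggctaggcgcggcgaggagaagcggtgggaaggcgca
Tcf7l2: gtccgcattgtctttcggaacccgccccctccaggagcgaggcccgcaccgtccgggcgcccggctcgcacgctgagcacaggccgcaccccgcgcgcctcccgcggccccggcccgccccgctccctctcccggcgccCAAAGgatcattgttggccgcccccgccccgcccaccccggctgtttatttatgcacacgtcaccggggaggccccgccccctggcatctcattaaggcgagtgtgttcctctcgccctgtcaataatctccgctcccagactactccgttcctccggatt
Fzd7: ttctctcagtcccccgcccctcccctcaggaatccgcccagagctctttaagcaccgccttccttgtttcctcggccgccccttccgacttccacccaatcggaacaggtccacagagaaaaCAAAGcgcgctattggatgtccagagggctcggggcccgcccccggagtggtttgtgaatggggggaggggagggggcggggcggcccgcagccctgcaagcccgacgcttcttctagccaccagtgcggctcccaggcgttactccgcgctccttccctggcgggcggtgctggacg
The Lef1 window held 2 cores, the Tcf7l2 window 1 and the Fzd7 window 1. Among all 32851 windows of this length, 53.9% held the core on either strand. The 7-letter form CTTTGAT, or ATCAAAG on the other strand, which contains the core, was in 3.73% of all windows and in 0 of the 13 windows that matched 7 of the 10 members. These matches are a description of the letters only.

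High Fzd6 and low Lef1 were shared by ABC and B1 cells relative to FO cells. On the brightest probe set of each gene, Tcf7l2 was the member whose level was higher in ABC than in each of the other 3 groups without overlap. A dimmer Fzd6 probe set, 1458904_at, was also higher in ABC without overlap. Fzd7 was low in FO cells. Lrp5, and Ctnnb1 on its brightest probe set, lay close together in all 4 groups. The plot of the 9 genes by array shows these patterns.

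**Figure D1:**
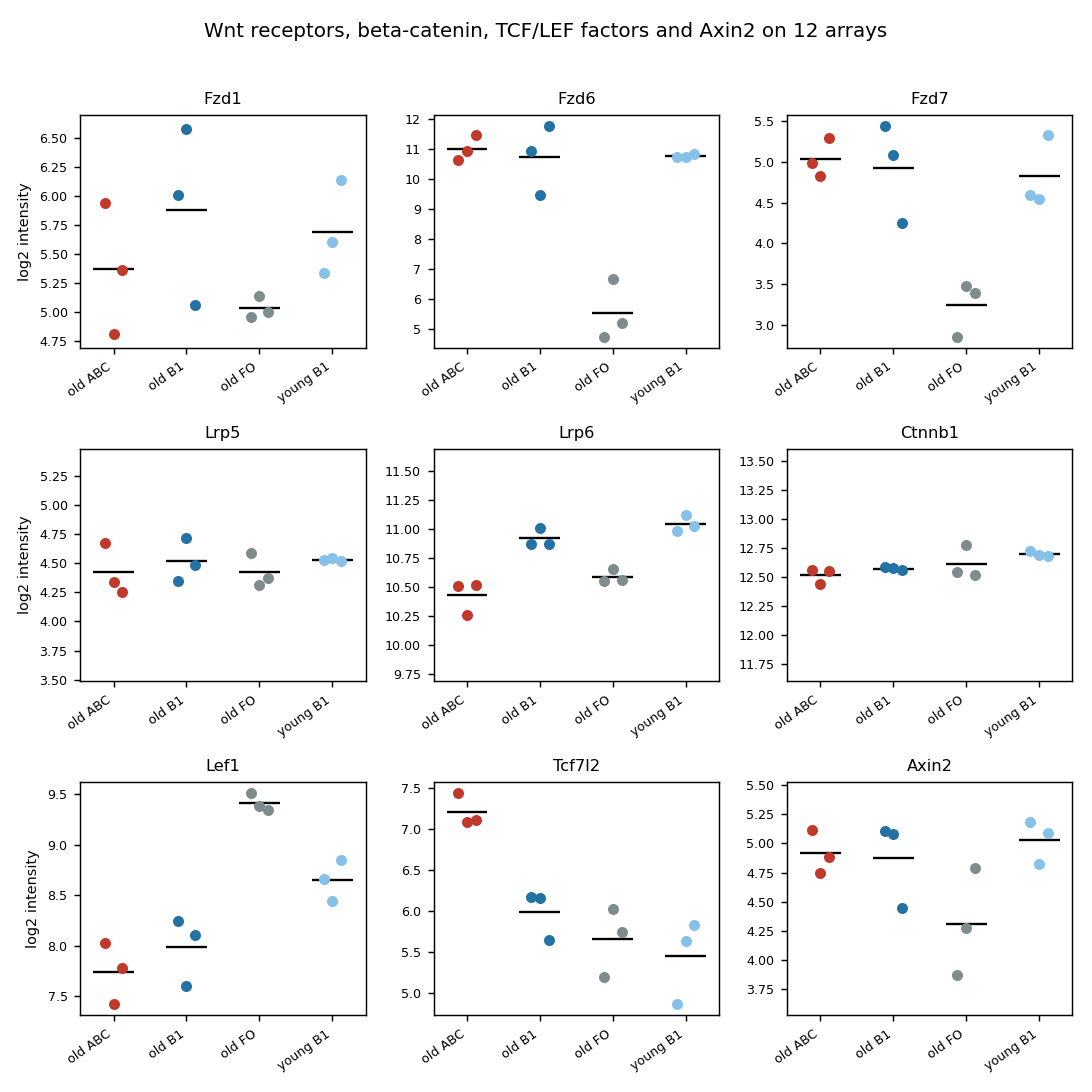
Log2 intensity (vertical axis, a scale of its own in each panel) of the 9 measured genes on 12 arrays, with groups along the horizontal axis, points for arrays and bars for group means. Fzd6 averages 11.02 in ABC, 10.73 in old B1, 5.55 in old FO and 10.78 in young B1 cells, and Lef1 is highest in old FO cells at 9.42.

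Fzd6 encodes a Frizzled receptor best known for planar polarity and for restraining canonical signalling in some cells. Its intensities were 1589.6, 1985 and 2835 in ABC, 1972, 709.5 and 3530.1 in old B1 cells, 26.8, 103.02 and 37.3 in old FO cells, and 1727, 1696 and 1845 in young B1 cells. Every ABC and B1 array was above every FO array. The log2 difference between ABC and FO cells was 5.47 ± 0.58 (SE of the limma fit, here and after each difference; n = 3 arrays per group), a 44.3-fold difference, and that between old B1 and old FO cells was 5.18 ± 0.58, or 36.3-fold. FO replicates 1 and 3 were under the median of their own array, so these folds rest on a dim FO signal, and the ABC minus FO difference was 6.04 without FO replicate 2. ABC and old B1 cells overlapped, with a difference of 0.29 ± 0.58. The scatter of the old B1 arrays carried that last value, which was -0.35 without old B1 replicate 2 and 0.81 without old B1 replicate 3, and the difference between old B1 and old FO cells was 5.81 without old B1 replicate 2. In bulk samples such as these, fewer cells that express a gene and less RNA per cell cannot be told apart.

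The 3 probe sets of Fzd6 gave the same order against FO cells but not between ABC and B1 cells. On 1458904_at the intensities were 226, 453.5 and 180 in ABC, 96.3, 25.9 and 61.7 in old B1 cells, 7.05, 9.43 and 11.8 in old FO cells, and 75.7, 46.4 and 44.0 in young B1 cells. There every ABC array was above every B1 array, and the ABC minus old B1 difference was 2.30 ± 0.48. The third probe set, 1448662_at, overlapped between ABC and old B1 cells, with a difference of 0.24 ± 0.49. Over the 12 arrays the log2 values of the brightest probe set, 1417301_at, correlated with those of 1448662_at at r = 0.91 and with those of 1458904_at at r = 0.82, as a description of arrays that fall into groups.

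Macrophage and monocyte markers moved with Fzd6 between the groups. The summed intensity of the 13 measured markers was 12999.5 to 14952 in ABC, 9967 to 21538 in old B1, 1254 to 2575 in old FO and 11819.7 to 18270.04 in young B1 cells. Against FO cells, 8 of the 13 were called higher in ABC and 12 of the 13 in old B1 cells. Examples in ABC were Adgre1 (F4/80), higher by 4.27 ± 0.40 (adjusted p = 7.88e-05), Lyz2 (lysozyme), by 3.22 ± 0.48 (adjusted p = 0.00162), and the scavenger receptor Cd163, by 2.16 ± 0.35 (adjusted p = 0.00255). Among the old B1 arrays, replicate 3 had the highest Fzd6 intensity, 3530.1, and the lowest macrophage sum, 9967. The summed intensity of the 9 measured dendritic cell markers also moved with Fzd6. It was 3479 to 5022 in ABC, 4658 to 4835 in old B1, 639 to 1185 in old FO and 4127 to 4608 in young B1 cells. Old B1 replicate 3 had the highest of the old B1 sums. Sirpa made up most of the sums in ABC and B1 cells. Its mean intensities were 3422 in ABC, 3892 in old B1, 398 in old FO and 3130 in young B1 cells. Against FO cells, 3 of the 9 were called higher in ABC, and 4 higher and 1 lower in old B1 cells. The lower one was Flt3, with log2 means of 6.62 in ABC, 5.16 in old B1 (5.87 without replicate 3) and 7.14 in old FO cells. Neutrophil markers had sums of 20898 to 35679.6 in ABC and 244 to 489 in old B1 cells. The Fzd6 levels of these groups overlapped on 1417301_at and 1448662_at. On 1458904_at every ABC array was above every old B1 array. Mast cell markers summed to 442 to 1216 in ABC, 2054 to 5025 in old B1 and 192 to 210.2 in old FO cells. The part of these other cells in the Fzd6 differences was not tested.

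Fzd7 encodes another Frizzled receptor, able to signal through beta-catenin. Its brighter probe set, 1450044_at, read 31.6, 28.3 and 39.1 in ABC, 43.5, 33.8 and 19.1 in old B1 cells, 7.23, 11.2 and 10.5 in old FO cells, and 24.1, 23.3 and 40.2 in young B1 cells. All 12 values were under the median of their own array, and the FO arrays were below all others. ABC were above FO cells by 1.79 ± 0.32, and ABC and old B1 cells overlapped with a difference of 0.11 ± 0.32 (-0.23 without old B1 replicate 3). In the test, Fzd7 was 3.21-fold higher in old B1 than in old FO cells, a log2 difference of 1.68 ± 0.32 (limma adjusted p = 0.00425), and the adjusted p reached at most 0.0378 under the alternatives that kept the gene in the fit. The second probe set, 1450043_at, was flat, from 10.3 to 13.2 on all 12 arrays, with a difference of -0.02 ± 0.13 between old B1 and old FO cells (adjusted p = 0.947), so the higher Fzd7 value in B1 cells rests on 1 of 2 probe sets.

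Fzd1, a further Frizzled receptor, read 61.6, 28.1 and 41.1 in ABC, 64.5, 95.8 and 33.4 in old B1 cells, 31.1, 35.3 and 32.0 in old FO cells, and 40.5, 48.7 and 70.4 in young B1 cells. The groups overlapped in every comparison. The old B1 minus old FO difference was 0.85 ± 0.38 (limma adjusted p = 0.172). Without old B1 replicate 3 it was 1.26 (adjusted p = 0.0185). ABC differed from FO cells by 0.34 ± 0.38 and from old B1 cells by -0.51 ± 0.38 (-0.92 without old B1 replicate 3).

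Lrp5 and Lrp6 encode the co-receptors that Wnt proteins bind together with a Frizzled. Lrp6 read 1458, 1224 and 1460.4 in ABC, 1873, 2062 and 1871 in old B1 cells, 1496, 1609 and 1506 in old FO cells, and 2023, 2226 and 2083 in young B1 cells. The ABC arrays were the lowest in both old comparisons, with differences of -0.49 ± 0.10 from old B1 cells and -0.16 ± 0.10 from old FO cells. On the second probe set, 1451022_at, these differences were -0.11 ± 0.19 and -0.19 ± 0.19, with overlapping arrays. Lrp6 was called 1.26-fold higher in old B1 than in old FO cells, by 0.33 ± 0.10 (limma adjusted p = 0.0479). That call was lost without old FO replicate 1, 2 or 3 (adjusted p = 0.135, 0.0567 and 0.136) and without old B1 replicate 1 or 2 (adjusted p = 0.0767 and 0.132), and its second probe set differed by -0.08 ± 0.19. Lrp5 lay between 19.04 and 26.4 on all 12 arrays, under each array's own median, and old B1 differed from old FO cells by 0.09 ± 0.14 (adjusted p = 0.717).

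Ctnnb1 was among the bright genes in all groups, and its differences were small on its brightest probe set, 1420811_a_at. It read 6019, 5538 and 5994 in ABC, 6134, 6095 and 6031 in old B1 cells, 5966, 6987 and 5871 in old FO cells, and 6759, 6590.2 and 6543 in young B1 cells. ABC differed from FO cells by -0.10 ± 0.09 with overlapping arrays, and from old B1 cells by -0.06 ± 0.09 without overlap, but by 0.18 with probe sets averaged. The old B1 minus old FO difference was -0.04 ± 0.09 (limma adjusted p = 0.831), with a 95% interval from -0.25 to 0.17. On 1430533_a_at ABC minus old B1 was 0.42 ± 0.24 and old B1 minus old FO -0.30 ± 0.24. Arrays overlapped in both.

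Lef1 encodes a factor that carries beta-catenin to target genes. Its intensities were 261, 171 and 219 in ABC, 304, 194 and 276 in old B1 cells, 732, 668.5 and 652 in old FO cells, and 404, 349 and 461 in young B1 cells. Every FO array was above every other array, and the ABC and old B1 arrays overlapped. ABC were 3.19-fold lower than FO cells, a log2 difference of -1.68 ± 0.20, and old B1 cells were 2.69-fold lower than FO cells, a difference of -1.43 ± 0.20. ABC differed from old B1 cells by -0.25 ± 0.20. The second probe set, 1421299_a_at, was under its array's median on all 12 arrays and gave differences of -0.85 for ABC and -0.67 for old B1 cells against FO cells, with overlapping arrays.

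T cells are a known source of Lef1 RNA. The summed intensity of the 12 measured T cell markers was 11538 to 12656 in ABC, 10673 to 13897 in old B1, 8040.3 to 10346 in old FO and 11274 to 11871 in young B1 cells, but Cd2 alone made up 66.6% to 93.8% of it. Without Cd2 the sums were 3482 to 4126 in ABC, 662 to 4126 in old B1, 1445 to 3200 in old FO and 1690 to 2479 in young B1 cells, with old B1 overlapping FO cells. Cd3e had log2 intensities of 9.03 in ABC, 8.01 in old B1 (8.95 without replicate 3), 8.74 in old FO and 8.00 in young B1 cells. Cd3d was at 8.90 in ABC, 7.25 in old B1 (8.50 without replicate 3), 8.43 in old FO and 7.56 in young B1 cells. Cd3g was at 10.27 in ABC, 9.08 in old B1 (9.68 without replicate 3), 8.02 in old FO and 9.18 in young B1 cells. Cd3g and Cd2 were the 2 of 12 markers called higher in ABC than in FO cells. The Cd3g difference was 2.25 ± 0.43 (limma adjusted p = 0.00732). Between old B1 and old FO cells Cd2 was the one called, higher in old B1 cells. Of 7 B cell precursor markers, which can also carry Lef1, Rag1, Rag2 and Dntt were under the median of their own array on all 12 arrays, and the sums of the 7 overlapped, at 1581 to 1675 in ABC, 1451 to 1955 in old B1, 1249.9 to 1832 in old FO and 1509 to 1978 in young B1 cells. Igll1 made up most of these precursor sums on average. Its mean intensities were 1158 in ABC, 1130 in old B1, 1235 in old FO and 1191 in young B1 cells. Of the 7, Vpreb1 was the one called, higher in ABC (6.40) than in FO cells (5.60) by 0.80 ± 0.20 (adjusted p = 0.027). The part of T cells and of precursors in the Lef1 differences was not tested.

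Tcf7l2 encodes a TCF factor that binds beta-catenin. Its intensities were 174, 136 and 138 in ABC, 72.2, 71.5 and 50.3 in old B1 cells, 36.5, 65.1 and 53.9 in old FO cells, and 29.1, 49.9 and 57.0 in young B1 cells. All ABC arrays were above all others. ABC were higher than FO cells by 1.56 ± 0.28, or 2.94-fold, and higher than old B1 cells by 1.22 ± 0.28, or 2.33-fold. Old B1 and old FO cells overlapped, with a difference of 0.34 ± 0.28 (limma adjusted p = 0.489). The other 3 probe sets were dim on all 12 arrays. On each of the 4, the ABC arrays were above the old FO and old B1 arrays. The differences were 0.59 to 1.56 against FO and 0.58 to 1.22 against old B1 cells. On 1429427_s_at this was a near tie, with ABC replicate 1 at 11.010 and old B1 replicate 2 at 11.008. There 10 of 12 values were under the 25th percentile of their own array. Neutrophil marker sums were also higher in ABC, at 20898 to 35679.6, than in old FO cells, at 496 to 10063, or old B1 cells, at 244 to 489. NK cell marker sums were also highest in ABC. Over the 7 measured they were 1297 to 2786 in ABC, 365 to 1214 in old B1, 663 to 795 in old FO and 710 to 868 in young B1 cells. Gzma and Ncr1 were the 2 called higher in ABC than in old FO and old B1 cells. Ncr1 was dim on all 12 arrays. Gzma had mean intensities of 757 in ABC, 79 in old B1, 38 in old FO and 48 in young B1 cells. In log2 means, Prf1 was no higher in ABC (8.55) than in old FO cells (8.60), nor Klrk1 in ABC (5.37) than in old B1 cells (5.92). The macrophage gene Adgre1 was at 12.34 in ABC, 10.17 in old B1, 8.06 in old FO and 9.80 in young B1 cells, with all ABC arrays above all others. The other macrophage markers did not share this order. Of the 13 measured, 1 was called higher (Adgre1) and 2 lower (Vsig4 and Cd68) in ABC than in old B1 cells. Their sums overlapped, at 12999.5 to 14952 in ABC and 9967 to 21538 in old B1 cells. The part of these cells in the Tcf7l2 difference was not tested.

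Axin2 encodes a scaffold of the destruction complex and is a common readout of canonical signalling. It read 34.7, 26.8 and 29.5 in ABC, 34.4, 33.9 and 21.8 in old B1 cells, 14.6, 19.3 and 27.6 in old FO cells, and 36.4, 28.3 and 34.0 in young B1 cells. The values were under the array median on all 12 arrays, and the groups overlapped in all 4 comparisons. Old B1 differed from old FO cells by 0.57 ± 0.24 (limma adjusted p = 0.154), and by 0.79 without old B1 replicate 3 (adjusted p = 0.0384).

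**Figure D2:**
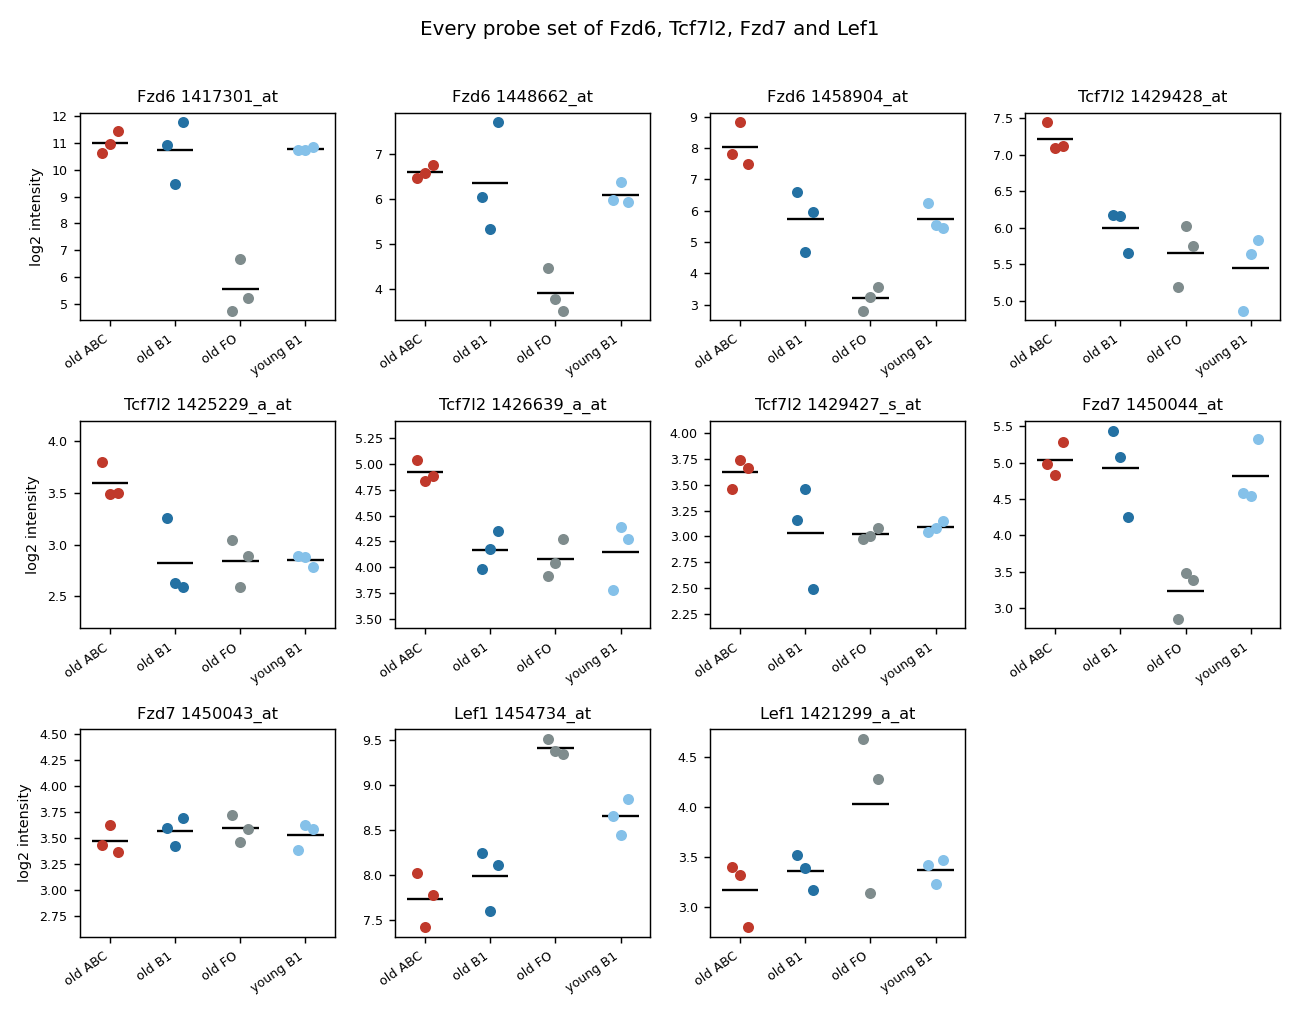
Log2 intensity (vertical axis, a scale of its own in each panel) on each array for every probe set of Fzd6, Tcf7l2, Fzd7 and Lef1, with points for arrays and bars for group means. All 4 Tcf7l2 probe sets are highest in ABC, while Fzd7 is low in old FO cells on 1450044_at but flat on 1450043_at.

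Counting the members gave 5 of 9 whose ABC and FO arrays did not overlap, 3 higher (Fzd6, Fzd7 and Tcf7l2) and 2 lower (Lef1 and Lrp6), where 28.8% of all genes did not overlap, 15.2% higher and 13.6% lower. Between ABC and old B1 cells 3 of 9 did not overlap, Tcf7l2 higher and Lrp6 and Ctnnb1 lower, where the share over all genes was also 28.8%, 17% higher and 11.8% lower. Members were picked on these comparisons, so nothing is read from the counts. The median difference over the members was 0.34 for ABC minus FO and -0.06 for ABC minus old B1 cells, where the medians of all genes were -0.03 and 0.02. Between old B1 and old FO cells 4 of 9 did not overlap, Fzd6, Fzd7 and Lrp6 higher and Lef1 lower (28.9% of all genes, 12.3% higher and 16.6% lower), and the median was 0.34 (-0.04 over all genes). In the test over all genes, 2 of the 7 members other than Fzd6 and Lef1 were called, Fzd7 and Lrp6, both higher, where 16.4% of all genes were called, 8.4% higher and 8.02% lower. Without old B1 replicate 3 the count was 4, with Fzd1 and Axin2 added. Nothing is read from a count over 7 members. ABC and B1 cells are set against the same FO arrays, so their differences are not independent.

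**Figure D3:**
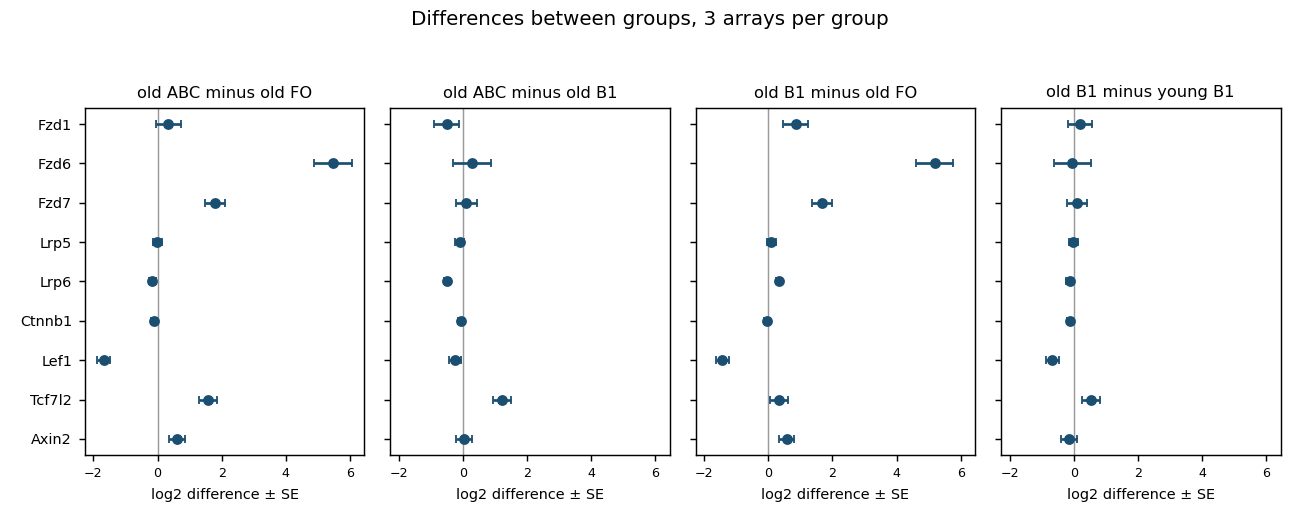
Log2 difference between groups (horizontal axis; points with the SE of the limma fit as bars) for the 9 genes in each of the 4 comparisons, 3 arrays per group. Fzd6 lies at 5.47 for old ABC minus old FO and 5.18 for old B1 minus old FO cells, and near 0 in the other panels.

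Age was tested in B1 cells, with all 9 members. The members were picked on ABC against the other old groups, with earlier results of these data known. The old B1 arrays thus took part in the choice, and the test is not independent of it. By limma 0 of 9 members were called (53 of 18193 genes, or 0.291%, were called, 0.159% higher and 0.132% lower), and 1 of 9 had an unadjusted p under 0.05, as did 7.57% of all genes. That gene was Lef1, at 304, 194 and 276 in old and 404, 349 and 461 in young B1 cells, with every old array below every young one. Its difference was -0.67 ± 0.20 (95% interval from -1.10 to -0.23, limma adjusted p = 0.336). The dim second probe set of Lef1, 1421299_a_at, gave -0.01 ± 0.33, with overlapping arrays. Old and young arrays did not overlap for 2 of 9 members, Lef1 and Ctnnb1, both lower in old cells, where 13.9% of all genes did not overlap, 6.14% higher and 7.75% lower in old cells. Ctnnb1 differed by -0.12 ± 0.09 (adjusted p = 0.716). It differed by more on its dimmer probe sets. The differences were -0.52 ± 0.24 on 1430533_a_at, with overlap, and -0.40 ± 0.16 on 1450008_a_at, without overlap. Tcf7l2 differed by 0.55 ± 0.28 (adjusted p = 0.693) and Fzd6 by -0.04 ± 0.58 (adjusted p = 0.987), with an interval from -1.33 to 1.24. The dimmer probe sets of Tcf7l2 gave differences from -0.06 to 0.02, with overlapping arrays. The differences of the other members, from -0.15 for Axin2 to 0.19 for Fzd1, were smaller than their standard errors, except Lrp6, at -0.13 ± 0.10. A p that misses the threshold does not show that the levels were alike.

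The genes whose log2 values over the 12 arrays were most like those of Fzd6 were Grn (r = 0.98), Nrp2 (r = 0.98), Zfp703 (r = 0.98), Lgals1 (r = 0.98) and Itgb1 (r = 0.98). Itgb1, an integrin chain, averaged 11.90 in ABC, 11.74 in old B1, 8.55 in old FO and 11.42 in young B1 cells, and Nrp2, a co-receptor for semaphorins and VEGF, averaged 11.14 in ABC, 11.22 in old B1, 7.21 in old FO and 11.10 in young B1 cells. Those most like Lef1 were Frmd6 (r = 0.95), Smc6 (r = 0.94), Ccsap (r = 0.94), Pa2g4 (r = 0.94) and Kalrn (r = 0.93). Kalrn averaged 4.94 in ABC, 4.86 in old B1, 6.93 in old FO and 5.32 in young B1 cells. These correlations follow group means of arrays that fall into separate groups and are given as a description.

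The rest of the pathway was read from 9 lists of 133 genes outside the members, of which 127 were measured. Called genes were 14 of 127 between ABC and FO cells (11% of them, where 9.96% of all genes were called), 19 between ABC and old B1 cells (15%, where 12.8% of all genes were called), and 22 between old B1 and old FO cells (17.3%, where 16.4% of all genes were called). The shares are near those of all genes. Between ABC and FO cells 9 were higher and 5 lower (7.12% and 2.84% of all genes), between ABC and old B1 cells 7 higher and 12 lower (7.4% and 5.43% of all genes), and between old B1 and old FO cells 12 higher and 10 lower. Between old and young B1 cells 0 of 127 were called and 9 (7.09%) had an unadjusted p under 0.05, as did 7.57% of all genes. The adjusted p-values of these genes are from limma over all genes, and each difference is a log2 value with its SE.

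Among receptors and ligands, most were dim: 14 of 21 ligand and export genes and 9 of 11 other receptors were under the array median on all 12 arrays. Ryk, a Wnt co-receptor of the kinase family, read 277, 241 and 191 in ABC, 419, 406 and 252 in old B1 cells, and 20.3, 55.5 and 20.6 in old FO cells. It was higher by 3.03 ± 0.36 in ABC (adjusted p = 3.78e-04) and by 3.62 ± 0.36 in old B1 cells (adjusted p = 7.57e-05) than in FO cells, without overlap. Of the 11 other receptors, Ryk was the one called in these comparisons. Of 21 ligand and export genes, 0 were called between ABC and FO cells, and 2 in each of the other comparisons of old cells. In ABC, Wnt2 (-1.29 ± 0.33; adjusted p = 0.0271) and Wnt10b (-0.76 ± 0.20; adjusted p = 0.0306) were lower than in old B1 cells. Both calls were lost without any of the 3 ABC arrays or old B1 replicate 1 or 2, with adjusted p from 0.06 to 0.0894. Against FO cells, old B1 cells had higher Wnt2 by 1.39 ± 0.33 (adjusted p = 0.0154), lost without old FO replicate 2 (adjusted p = 0.051), and higher Wnt10b by 0.66 ± 0.20 (adjusted p = 0.0491), lost without old B1 replicate 1 or 2 or old FO replicate 2 or 3, with adjusted p from 0.0852 to 0.137.

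The R-spondin axis, which sets how many Frizzled proteins stay on the surface, had 1 called gene of 9 between ABC and FO cells, 3 between ABC and old B1 cells and 1 between old B1 and old FO cells. Rnf43, a ligase that removes Frizzleds from the surface, read 252, 86.8 and 350.5 in ABC, 55.9, 37.1 and 60.4 in old B1 cells, and 38.4, 63.4 and 34.1 in old FO cells. Rnf43 was higher in ABC by 2.18 ± 0.45 against FO cells (adjusted p = 0.0107; 2.77 without ABC replicate 2) and by 1.98 ± 0.45 against old B1 cells (adjusted p = 0.0148; 2.57 without ABC replicate 2). Its second call was lost without ABC replicate 1 or 3 or old B1 replicate 2, with adjusted p from 0.0506 to 0.0593. Znrf3, the related ligase, was higher in ABC than in old B1 cells by 1.13 ± 0.27 (adjusted p = 0.0176), lost without ABC replicate 1 or 3 (adjusted p = 0.0599 and 0.0553), and lower in old B1 than in old FO cells (-0.90 ± 0.27; adjusted p = 0.0428), lost without any of the 3 FO arrays (adjusted p from 0.0827 to 0.128). Lgr4, an R-spondin receptor, was lower in ABC than in old B1 cells (-1.20 ± 0.25; adjusted p = 0.00883).

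Of 13 destruction complex and Dishevelled genes, 1 was called higher between ABC and FO cells, 2 lower between ABC and old B1 cells, and 2 higher and 1 lower between old B1 and old FO cells. Btrc, which tags beta-catenin for degradation, was higher in ABC than in FO cells by 0.64 ± 0.15 (adjusted p = 0.0215), lost without ABC replicate 2 or 3 or old FO replicate 1 (adjusted p from 0.0717 to 0.0885). The adaptor Dvl1 was lower in ABC than in old B1 cells (-0.45 ± 0.09; adjusted p = 0.00621) and higher in old B1 than in old FO cells by 0.39 ± 0.09 (adjusted p = 0.0103). Dvl2 was lower in old B1 than in old FO cells (-0.72 ± 0.13; adjusted p = 0.00406). Csnk1e, a kinase of the pathway, was lower in ABC than in old B1 cells (-0.89 ± 0.23; adjusted p = 0.028), lost without ABC replicate 2 or 3 or old B1 replicate 1 or 2 (adjusted p from 0.0753 to 0.0982), and higher in old B1 than in old FO cells by 1.07 ± 0.23 (adjusted p = 0.00902).

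Of 17 nuclear partners, Tle1 was the one called between ABC and FO cells, 0 were called between ABC and old B1 cells, and 1 higher and 3 lower between old B1 and old FO cells. Tle1, a Groucho co-repressor of TCF/LEF factors, read 72.2, 49.02 and 43.5 in ABC, 40.6, 51.4 and 31.0 in old B1 cells, and 258, 137 and 190.0 in old FO cells. It was lower in ABC (-1.82 ± 0.27; adjusted p = 0.00135) and in old B1 cells (-2.23 ± 0.27; adjusted p = 2.28e-04) than in FO cells. Old B1 cells were also lower than old FO cells in Bcl9l, a beta-catenin co-activator (-1.22 ± 0.20; adjusted p = 0.00193), and in Tle2 (-0.66 ± 0.15; adjusted p = 0.0118), lost without old FO replicate 3 (adjusted p = 0.0535). Pygo2, a chromatin reader that pairs with Bcl9, was higher by 0.32 ± 0.09 (adjusted p = 0.0288), lost without old B1 replicate 1 or 3 or old FO replicate 1 or 3 (adjusted p from 0.055 to 0.115).

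Of 18 inhibitors, 14 were dim on all 12 arrays, and 2 were called higher between ABC and FO cells. Between ABC and old B1 cells 2 were called higher and 2 lower, and between old B1 and old FO cells 1 higher and 1 lower. Dkkl1, a relative of the Dickkopf proteins, read 438, 268 and 286 in ABC, 1113, 1346 and 1138 in old B1 cells, and 153, 113 and 64.0 in old FO cells. It was higher by 1.64 ± 0.28 in ABC (adjusted p = 0.00384) and by 3.53 ± 0.28 in old B1 cells (adjusted p = 1.58e-05) than in FO cells, and lower in ABC than in old B1 cells (-1.89 ± 0.28; adjusted p = 0.00144). Dkk3, another relative, was higher in ABC by 1.94 ± 0.40 against FO cells (adjusted p = 0.0113), lost without old FO replicate 1 (adjusted p = 0.0511), and by 1.84 ± 0.40 against old B1 cells (adjusted p = 0.0126). Kremen1, a Dickkopf receptor, was higher in ABC than in old B1 cells by 1.0 ± 0.29 (adjusted p = 0.0454), lost without any of the 3 ABC arrays (adjusted p from 0.0887 to 0.128), and lower in old B1 than in old FO cells (-1.01 ± 0.29; adjusted p = 0.0371), lost without old FO replicate 1 or 3 (adjusted p = 0.128 and 0.099). Sfrp1, a secreted Wnt binder that was dim on all arrays, was lower in ABC than in old B1 cells (-0.64 ± 0.18; adjusted p = 0.0386), lost without any ABC array or old B1 replicate 1 or 2 (adjusted p from 0.0695 to 0.133).

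Of 17 genes known as Wnt targets in other tissues, 3 were called higher and 2 lower between ABC and FO cells, 2 higher and 2 lower between ABC and old B1 cells, and 2 higher and 1 lower between old B1 and old FO cells. Myc read 1094, 447 and 641 in ABC, 2804, 3276 and 2149 in old B1 cells, and 1504, 2648 and 1790.2 in old FO cells. Myc was lower in ABC than in FO cells (-1.5 ± 0.31; adjusted p = 0.011) and than in old B1 cells (-1.99 ± 0.31; adjusted p = 0.00185). Ccnd1 (cyclin D1) was higher in ABC than in FO cells by 1.62 ± 0.46 (adjusted p = 0.0494), a call lost without any 1 of the 6 arrays (adjusted p from 0.0571 to 0.181). The adhesion receptor Cd44 was higher than in FO cells by 1.35 ± 0.20 in ABC (adjusted p = 0.00158) and by 1.81 ± 0.20 in old B1 cells (adjusted p = 1.51e-04). Id2, an inhibitor of E proteins, was higher in ABC by 1.68 ± 0.35 against FO cells (adjusted p = 0.0108) and by 1.56 ± 0.35 against old B1 cells (adjusted p = 0.0131), the second lost without ABC replicate 2 (adjusted p = 0.0537). Dusp6, a phosphatase that also follows ERK signalling, was lower than in FO cells both in ABC (-1.47 ± 0.18; adjusted p = 5.00e-04) and in old B1 cells (-2.34 ± 0.18; adjusted p = 1.39e-05), and higher in ABC than in old B1 cells by 0.87 ± 0.18 (adjusted p = 0.0101). Tnfrsf19 (Troy) was lower in ABC than in old B1 cells (-4.76 ± 0.53; adjusted p = 2.41e-04; -5.50 without ABC replicate 1) and higher in old B1 than in old FO cells by 5.41 ± 0.53 (adjusted p = 6.50e-05). Called genes of this list were thus both higher and lower in each comparison of old cells.

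Fzd6 is best known for planar polarity, whose list had 1 called gene of 11 between ABC and FO cells, 1 between ABC and old B1 cells, and 1 higher and 2 lower between old B1 and old FO cells. Vangl2, a core polarity protein, was lower than in FO cells both in ABC (-1.86 ± 0.23; adjusted p = 5.00e-04) and in old B1 cells (-2.48 ± 0.23; adjusted p = 4.57e-05). Prickle1, a polarity adaptor, read 99.95, 48.4 and 116 in ABC, 391, 205 and 2915 in old B1 cells, and 30.5, 25.4 and 36.0 in old FO cells. It was lower in ABC than in old B1 cells (-2.90 ± 0.77; adjusted p = 0.0316), lost without any ABC array (adjusted p from 0.0566 to 0.123) and at -1.78 without old B1 replicate 3 and -3.69 without old B1 replicate 2, and higher in old B1 than in old FO cells by 4.34 ± 0.77 (adjusted p = 0.00304; 5.14 without old B1 replicate 2 and 3.22 without old B1 replicate 3). Celsr2, a polarity cadherin, was lower in old B1 than in old FO cells (-0.87 ± 0.17; adjusted p = 0.00612).

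Lef1 and Tcf7l2 bind DNA through an HMG box, and 10 relatives were measured, of which 1 was called higher and 1 lower between ABC and FO cells, 1 higher and 2 lower between ABC and old B1 cells, and 2 higher and 1 lower between old B1 and old FO cells. Sox4 read 60.9, 46.6 and 38.3 in ABC, 24.9, 13.8 and 8.04 in old B1 cells, and 444, 268 and 388 in old FO cells. It was lower than in FO cells both in ABC (-2.91 ± 0.37; adjusted p = 5.22e-04) and in old B1 cells (-4.68 ± 0.37; adjusted p = 1.38e-05), and higher in ABC than in old B1 cells by 1.77 ± 0.37 (adjusted p = 0.00929). Sox5, a B1 cell marker, was higher than in FO cells by 3.45 ± 0.23 in ABC (adjusted p = 9.66e-06) and by 5.26 ± 0.23 in old B1 cells (adjusted p = 5.10e-07), and lower in ABC than in old B1 cells (-1.82 ± 0.23; adjusted p = 5.48e-04). Sox13, dim on all arrays, was lower in ABC than in old B1 cells (-0.40 ± 0.10; adjusted p = 0.0307), lost without ABC replicate 2 or 3 or old B1 replicate 1 or 2 (adjusted p from 0.0715 to 0.114), and higher in old B1 than in old FO cells by 0.45 ± 0.10 (adjusted p = 0.0138), lost without old B1 replicate 1 or old FO replicate 1 (adjusted p = 0.0506 and 0.0525).

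**Figure D4:**
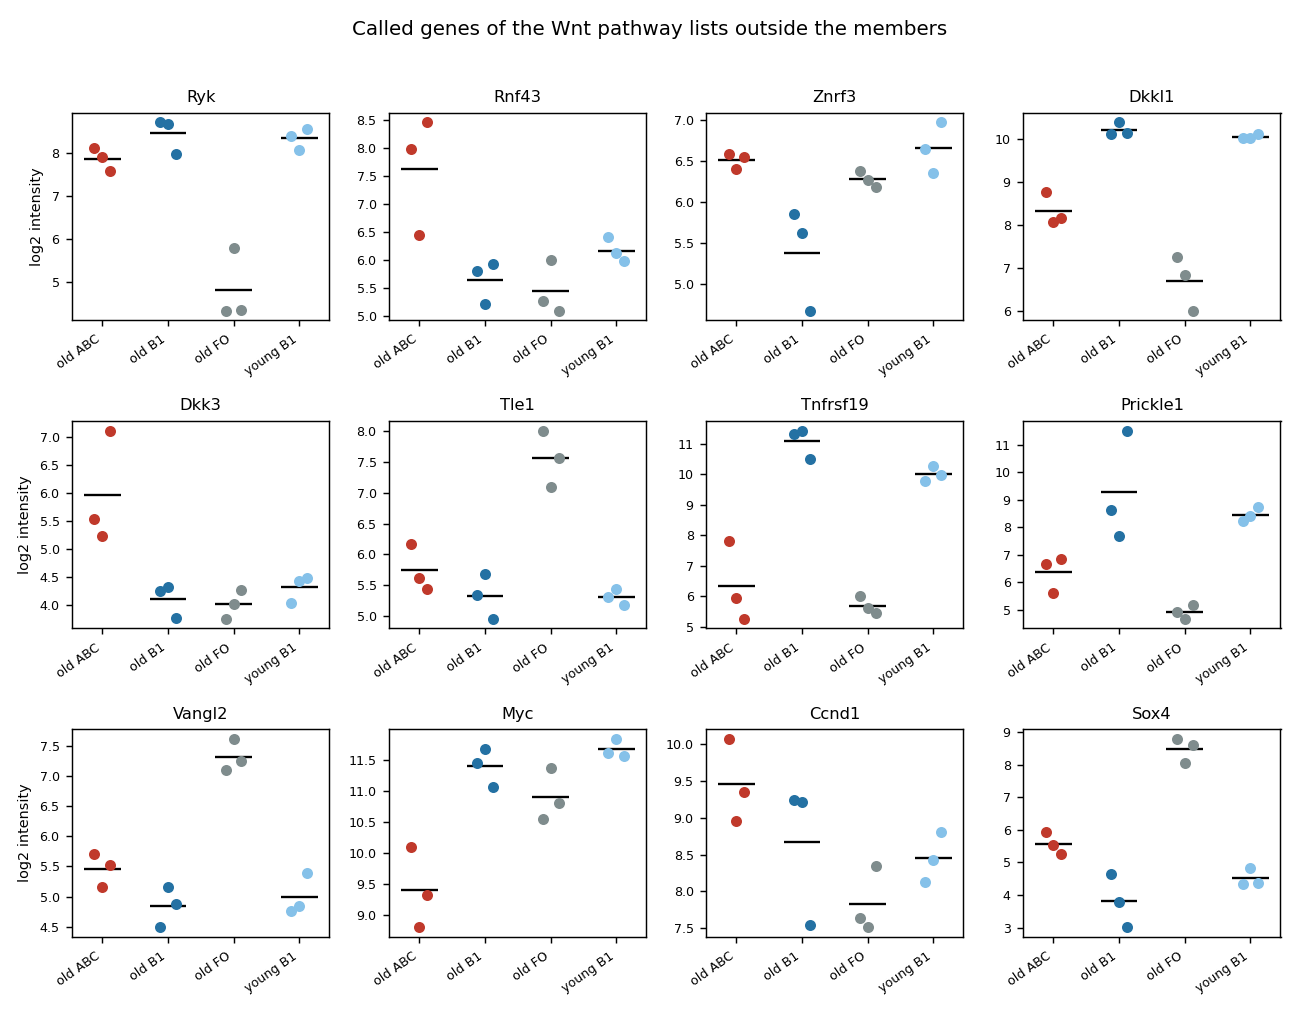
Log2 intensity (vertical axis, a scale of its own in each panel) of 12 called pathway genes outside the members on each array, with groups along the horizontal axis, points for arrays and bars for group means. Ryk is lowest and Tle1, Vangl2 and Sox4 are highest in old FO cells, and Prickle1 in old B1 cells spreads from 205 to 2915 in intensity.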

How the data were processed

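The deposited linear intensity values ranged from 3.00 to 22068; RMA and affy are named for them, per the submitters' processing notes, with no version given in the sources used here. Values were then turned to log2. Of 45037 probe sets, 34945 carried 1 gene symbol, and the probe set of highest average stood for each gene, which left 18193 genes; no dim probe set was filtered out. The 4 group means were fitted over all 12 arrays with limma 3.58.1 in R 4.3.3 (lmFit and eBayes, 8 residual degrees of freedom), and calls were made at an adjusted p under 0.05 (Benjamini-Hochberg over all genes of a comparison). Figures and tables were made with Python 3.11.15, pandas 2.3.3 and matplotlib 3.10.9.

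The members and the gene lists were chosen with earlier results of these data known. Text names all members, up to 4 called genes per pathway list and comparison (and Ccnd1, named after its values were seen), and for Fzd6 and Lef1 the 5 genes with the highest correlation; markers are given by counts and sums, with a few named. Replicate numbers were checked as pairs: of 18 same-number pairs, correlations of deviations from group means ran from -0.39 to 0.23, and 3 were over 0.1, so the numbers were not taken as pairs. On simulated data 200 of 18193 genes were changed, 50 at each size. At a log2 change of 1 the fit called 31, 35, 25 and 24 of the 50. These are for ABC minus FO, ABC minus old B1, old B1 minus old FO and old minus young B1. The simulated noise was normal with the same variance on all arrays of a gene, so no array stood apart. The share found there need not hold for the real arrays. Alternatives were trend and array weights, the compared groups alone, a replicate block, cyclic loess, median centring, a filter on dim genes, other choices of probe set, each array left out, and both arrays that stand apart left out.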

Additional observations from a re-analysis of the deposited data

How the results depend on the processing

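Over the alternatives, ABC minus FO ran from 4.33 to 6.04 for Fzd6, from -1.82 to -1.26 for Lef1 and from 0.94 to 1.74 for Tcf7l2. The members were picked on this comparison, so these ranges are a description. Some alternatives keep the same group means and could not move a difference. Trend, the compared groups alone, the replicate block, the dim filter and probe sets fitted singly left Fzd6 at 5.47. Counts of called genes moved more. Counts of genes are out of 18193 and counts of probe sets out of 45037, so the 2 kinds cannot be compared directly. Between ABC and FO cells, 1812 genes became 3961 with array weights, 2763 probe sets when fitted singly and 2964 without old B1 replicate 3 and old FO replicate 2; pathway calls became 24 with array weights. Between ABC and old B1 cells, 2334 became 3592 with array weights, 1062 with the compared groups alone and 3820 probe sets, and pathway calls became 6 with the groups alone and from 10 to 23 with an array left out. Between old B1 and old FO cells, 2988 became 5001 with array weights, 1455 with the groups alone and 5167 probe sets, and pathway calls became 40, 11 and, without both arrays, 34. Between old and young B1 cells, 53 became 316 with array weights, 2 with the groups alone, 208 without both arrays and from 17 to 165 with an array left out (165 without old B1 replicate 3), and pathway calls 3, 2 without both arrays and from 0 to 1.

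Members called between old B1 and old FO cells were 1 with the groups alone, median centring, the dim filter, probe sets averaged and probe sets fitted singly, and from 1 to 4 with an array left out. The dim filter left 5 members and a median ABC minus FO difference of -0.10. With replicate number as a block, calls were 1543 for ABC minus FO, 2034 for ABC minus old B1, 2570 for old B1 minus old FO and 32 for old minus young B1 cells, and members called between old B1 and old FO cells 1, with Lrp6 lost (adjusted p = 0.0909). Under the block the other counts moved by less than 1.5 times. In 36 checks, each of an array against another group, the best match had the same replicate number in 9 checks.

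Small differences changed sign. Between old and young B1 cells, Axin2 was 0.037 with array weights, 0.062 without both arrays and from -0.27 to 0.062 with an array left out. Fzd1 ran from -0.16 (without old B1 replicate 2) to 0.60 with an array left out, Fzd6 from -0.57 to 0.59 (without old B1 replicate 2), and Fzd7 from -0.15 (without old B1 replicate 1) to 0.44. Fzd6 was also 0.051 with cyclic loess and 0.072 with probe sets averaged. Lrp5 was 0.010 with cyclic loess, 0.0090 with centring, 0.0048 without both arrays and from -0.11 to 0.072 with an array left out. Between old B1 and old FO cells, Ctnnb1 was 0.031 with array weights, 0.047 without both arrays and from -0.085 to 0.040 with an array left out, and Lrp5 ran from -0.0067 to 0.18 with an array left out. Ctnnb1 was 0.019 for ABC minus FO and 0.18 for ABC minus old B1 with probe sets averaged. With an array left out, ABC minus old B1 ran from -0.35 to 0.81 for Fzd6, -0.23 to 0.37 for Fzd7, -0.18 to 0.15 for Axin2 and -0.22 to 0.0034 for Lrp5 (0.0067 with array weights), and ABC minus FO from -0.13 to 0.082 for Lrp5 (0.12 with array weights, 0.057 with cyclic loess). Axin2 in ABC minus old B1 was -0.067 with array weights, -0.0050 with cyclic loess, -0.013 with probe sets averaged and -0.18 without both arrays, and Fzd7 -0.22 with array weights and -0.23 without both arrays. The cause of these changes was not tested. Signal limits Fzd7, Lrp5 and Axin2, which lay under their arrays' medians.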
